A study of Saccharomyces cerevisiae with 12 samples.

Results

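Across 12 ATAC-seq libraries of the yeast Saccharomyces cerevisiae, 432 stretches of the 16 nuclear chromosomes held a called peak in every library. They were found by merging all overlapping or touching nuclear peaks of the 12 peak lists into 2047 regions and keeping those with at least 1 peak from each library. Together the 432 merged regions spanned 378929 bp, which is 3.14% of the nuclear chromosomes. The regions were thus chosen by the presence of peaks in these same lists, so presence and peak strength are described here without a test, and tests were run only on peak width and summit position. A summit is the base at which a peak is highest.

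The study asked how open 2 synthetic constructs are in yeast beside the host genome. HPRT1 is a synthetic version of a human purine salvage locus, and HPRT1R carries its sequence reversed. ATAC-seq uses the Tn5 transposase to cut and tag DNA that is not covered by nucleosomes or other proteins. All strains were BY4741, a haploid of mating type a widely used in the laboratory, and all carried a construct, so no strain without a construct is included here. The 4 groups were BY4741 with HPRT1R on a yeast artificial chromosome (YAC) grown in SC-Leu, BY4741 with HPRT1R integrated on chromosome XI grown in YPD, BY4741 with HPRT1 on a YAC grown in SC-Leu, and BY4741 with HPRT1 integrated on chromosome XI grown in YPD. Each group had 3 libraries. Medium and format cannot be told apart, and nothing in the labels tells if replicates came from separate isolates or cultures, so p-values measure only the spread between these libraries.

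In budding yeast, most open chromatin lies in short nucleosome-depleted stretches upstream of genes, flanked by a positioned nucleosome at the start of transcription. General regulatory factors such as Rap1, Reb1 and Abf1 and the remodeller RSC keep many of these stretches open. Genes for ribosomal proteins and glycolytic enzymes are among the most heavily transcribed, and tRNA genes are held open by the RNA polymerase III machinery.

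The peak lists held 913 to 1303 nuclear peaks per library, and read totals are unknown. Promoters of the a-specific genes STE2, MFA1, MFA2 and STE6 held a peak in 11, 3, 5 and 5 libraries, and those of BAR1 and ASG7 in 0. Of the alpha-specific genes, MFALPHA2 had a promoter peak in 1 library, and STE3, MFALPHA1 and SAG1 had none. BY4741 lacks HIS3, LEU2, MET17 and URA3. No library had a summit inside HIS3, MET17 or URA3, whereas 5 YAC libraries and 0 integrated libraries had one inside LEU2 on chromosome III, 91324 to 92418. Since the strain lacks this gene and YAC strains grew without leucine, these summits may not belong to the chromosome III locus, and their source was not tested.

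The number of regions was highest at the extremes of library count. Beside the 432 regions in all 12 libraries, 138 regions had a peak in exactly 11 libraries and 510 in 1 library only, while each count from 3 to 10 libraries held 63 to 132 regions. The 138 regions just outside the rule lacked a peak most often in HPRT1R YAC replicate 3, which missed 47 of them and had the shortest list, with 913 nuclear peaks. HPRT1 integrated replicate 3, with the longest list of 1303 nuclear peaks, missed 0 of them.

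**Figure D1:**
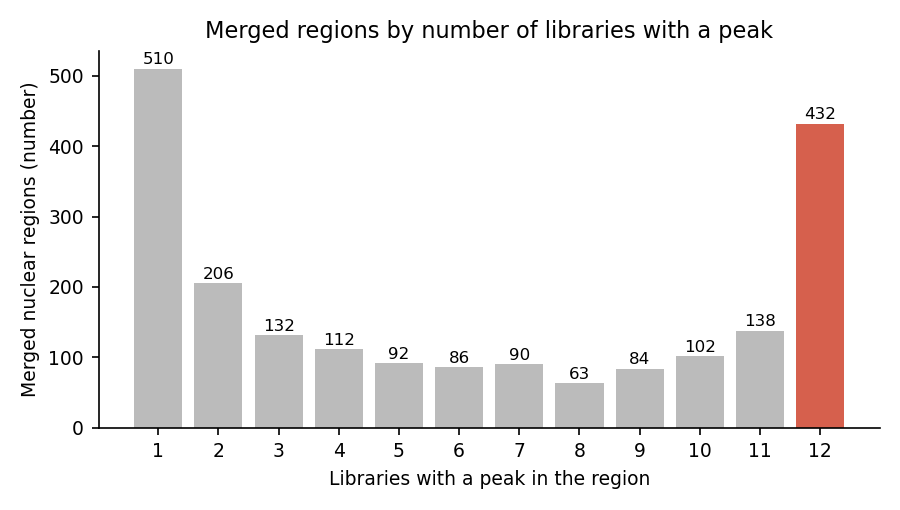
Number of merged nuclear regions (y axis) by the number of libraries with a peak in the region (x axis, 1 to 12); the coloured bar marks the regions with a peak in all 12 libraries. The counts are highest at the ends, with 510 regions in 1 library and 432 in 12.

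The regions in all 12 libraries took 470 to 486 peaks of each list, 36.8 to 52.5% of its nuclear peaks and 54.1 to 65.3% of its nuclear peak bases. They averaged 47.9 ± 2.44% of the nuclear peaks in YAC libraries and 41.1 ± 4.53% in integrated libraries (SD, n = 6 each). The number of peaks in them was nearly constant, so this share fell as a list grew longer.

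Peak strength was read from the fold enrichment over local background at the summit, the authors' own value for each peak, and ranked within each library as a percentile. In every library, 87 to 95 of the 100 strongest nuclear peaks lay in these regions. The median percentile of the strongest peak per region was 67 to 79.3 for the 432 regions and 33.4 to 40.3 for the other regions of the same library. Yet the regions were not all strong. Only 154 (35.6%) stood above the 50th percentile in every library, 15 (3.47%) stood in the top 10% in every library, and 34 (7.87%) fell below the 10th percentile in at least 1 library. The median of the mean fold enrichment was 4.30 over the 432 regions and 3.65 over the 138 regions with 11 libraries. Median summit pileups recovered from the lists were 22 to 33 reads in the 432 regions and 18 to 23 reads in the others, so a single peak rests on few reads.

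Placed by their median summit, 250 of the 432 regions (57.9%, Wilson 95% interval 53.2 to 62.4%) lay at a protein-coding promoter, taken as 500 bp upstream to 100 bp downstream of an annotated gene start. The interval covers counting error only. Of these, 173 (40.0% of the 432) lay at the promoter of a single gene and 77 (17.8%) at the promoters of both neighbouring genes at once. Another 43 (9.95%) lay in a gene body and 139 (32.2%) elsewhere. The gene table used here has no entries for replication origins, centromeres or long terminal repeats, so regions placed elsewhere could not be tied to such elements. Its protein-coding genes start at the coding sequence, so distances from gene starts are not distances from the start of transcription. Promoter windows covered 25.1% of the chromosomes and gene bodies outside them 63.8%.

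With this window, the promoter share was not higher than in less frequent regions. It was 68.1% (94 of 138) among regions in 11 libraries, 66.6% (283 of 425) in 6 to 10 libraries, 70.7% (383 of 542) in 2 to 5 libraries and 71.4% (364 of 510) in 1 library. Summits elsewhere were 32.2% of the 432 regions, 26.8% of regions in 11 libraries and 11.4% of regions in 1 library. Gene-body summits were 9.95%, 5.07% and 17.3% in the same order. The promoter share of the 432 depends on the window. It was 25.5% for a window from 300 bp upstream to the start and 85.6% when any base of the merged region could touch a promoter. Shares of the other sets are given for the main window only.

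The summits lay farther from gene starts than those of rarer regions. The signed distance from the nearest protein-coding start, negative upstream, had a median of -326 bp (quartiles -497 and -149 bp), against -278 bp for regions in 11 libraries and -154 bp for regions in 1 library. Summits within 250 bp upstream of the nearest start were 16.4% of the 432 regions, 29.7% of regions in 11 libraries and 43.9% of regions in 1 library. Summits from 250 to 500 bp upstream were 38.4%, 40.6% and 19.0%. The fullest 50 bp bin of the 432 regions ran from 450 to 400 bp upstream and held 10.2% of them, whereas for regions in fewer than 12 libraries it ran from 250 to 200 bp upstream and held 12.1%.

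**Figure D2:**
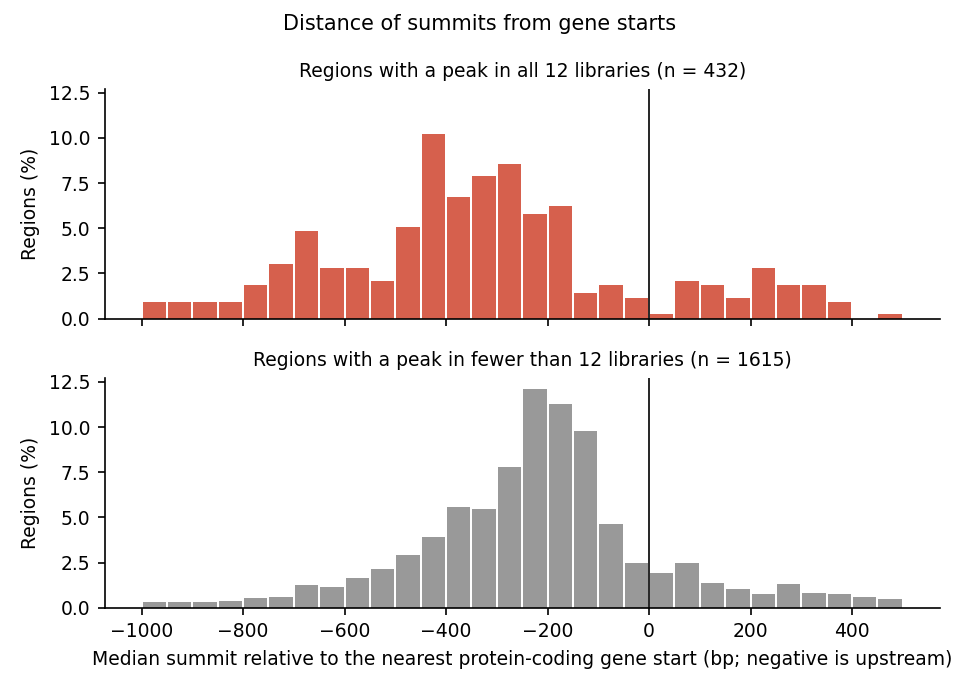
Percent of regions (y axis) in 50 bp bins of the distance from the median summit to the nearest protein-coding gene start (x axis, bp, negative upstream), for regions with a peak in all 12 libraries (top) and in fewer (bottom). Summits beyond the axis are 11.1% at the top and 13.9% at the bottom. The top panel is broad, with its fullest bin at 450 to 400 bp upstream, and the bottom panel is fullest at 250 to 200 bp upstream.

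The stretches between genes that held these summits were long. In all, 310 summits (71.8%) lay between genes, 101 (23.4%) inside an annotated gene and 21 (4.86%) beyond the first or last gene of a chromosome. Of the 310, 179 (57.7%) lay between divergent genes, which point away from each other and so have their promoters in the shared stretch. Another 122 (39.4%) lay between tandem genes and 9 (2.9%) between convergent genes, which share only their ends. Over all merged regions the shares were 49.3%, 47.6% and 3.06%, and by base content of the genome's intergenic stretches 34.4%, 50.4% and 15.2%. The stretch had a median length of 861.5 bp for the 432 regions, against 698 bp for regions in 11 libraries, 512 bp for regions in 1 library and 354 bp over all 6239 intergenic stretches.

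Of the gene lists read, ribosomal protein genes were the most numerous at these promoters, and glycolytic genes had the highest share. A region present in all 12 libraries stood at the promoter of 327 of 6002 protein-coding genes (5.45%), and a region present in any number of libraries at 1790 (29.8%). Among ribosomal protein genes it stood at 47 of 138 (34.1%), among genes of glycolysis and fermentation at 11 of 27 (40.7%), and the shares with a region in any number of libraries were 80.4% and 51.9%. These lists were chosen with earlier results known and are described without a test.

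The 47 ribosomal protein genes shared 44 regions, 19 of them at the promoters of 2 genes. The large subunit had 27 of 76 genes and the small subunit 19 of 56, and the stalk protein gene RPP2A was the other. The group's summits lay at a median of 306 bp upstream of the start (198 to 454 bp), and the regions had a median width of 341 bp, against 462 bp over all 250 promoter regions. RPL6B, on chromosome XII from 1027841 to 1028821, had the highest mean percentile of the group, with a mean fold enrichment of 5.16 ± 0.891 (SD, n = 12) and summits within 73 bp of each other. RPL12A on chromosome V, 53288 to 53798, had 5.08 ± 1.17, and its twin RPL12B on chromosome IV, 1300894 to 1301660, 4.78 ± 0.80. At the narrow end, RPS6B on chromosome II had a median width of 185 bp, the smallest of the 432.

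Glycolysis had 11 genes with such a region, which were HXK2 (hexokinase), PFK2 (a phosphofructokinase subunit), FBA1 (aldolase), TPI1 (triose phosphate isomerase), TDH1 and TDH2 (glyceraldehyde-3-phosphate dehydrogenase), PGK1 (phosphoglycerate kinase), GPM1 (phosphoglycerate mutase), ENO1 and ENO2 (enolase) and the alcohol dehydrogenase gene ADH3. Their summits lay 283 to 500 bp upstream, at a median of 434 bp. ENO2, on chromosome VIII from 450504 to 451195, had its summit 434 bp upstream of the start, inside the annotated frame YHR173C. Its fold enrichment was 5.94, 4.98 and 3.42 in HPRT1R YAC libraries, 4.90, 5.86 and 4.87 in HPRT1R integrated libraries, 6.23, 5.18 and 5.57 in HPRT1 YAC libraries, and 6.34, 5.37 and 6.03 in HPRT1 integrated libraries. The groups overlapped, and HPRT1R YAC replicate 3 was the lowest. Its 12 summits lay within 35 bp, and 11 of them within 5 bp. At PGK1, whose region on chromosome III from 137077 to 138920 also lay in the promoter window of the transporter gene ADP1, the mean fold enrichment was 5.40 ± 0.704 (SD, n = 12). ENO1 had 4.99 ± 0.947 and PFK2 4.96 ± 0.883.

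Other lists had fewer members. Translation factors had 5 of 35 genes (14.3%), among them HYP2, which encodes eIF5A, with the highest mean fold enrichment of the list at 5.48 ± 0.960 (SD, n = 12). The elongation factor gene TEF2 had 4.88 ± 0.971, and EFT2 had 4.46 ± 0.723. The other genes of this list with such a region were TEF1 and EFB1. Of 11 histone genes only HHT2 and HHF2, a divergent pair for histones H3 and H4, had such a region (18.2%), with a mean fold enrichment of 4.21 ± 0.815 and summits within 183 bp. The chaperone list had 2 of 33 (6.06%), the Hsp70 gene SSA1, in a region shared with EFB1, and the cyclophilin gene CPR1. Counting regions in any number of libraries, the shares were 51.4% for translation factors, 72.7% for histones and 48.5% for chaperones. That share was 29.8% over all protein-coding genes.

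Nutrient genes were present in small numbers, with list shares of 4.55 to 10.9% beside 5.45% of all protein-coding genes. Permeases and ATPases of the plasma membrane and vacuole had 4 of 40 genes (10%), all permeases, namely GNP1 for glutamine, FUI1 for uridine, AGP1 for amino acids and FCY2 for purines and cytosine. GNP1, whose region also lay at the edge of the promoter window of the SUMO gene SMT3, had 5.37 ± 0.805. Among hexose transporters and glucose sensors only HXT3 had a region present in all 12 libraries (1 of 22, 4.55%), with fold enrichments of 3.12 to 7.03. The iron regulon had 3 of 28 (10.7%), the oxidase gene FET3, the permease gene FTR1 and the iron-sulfur scaffold gene ISU1. Amino acid biosynthesis had 7 of 64 (10.9%), which were ARO8, ASN1, GDH1, LYS4, LYS20, LYS21 and MET6. Sterol and fatty acid synthesis, a list that also holds inositol synthesis, had 2 of 37 (5.41%), ERG3 and INO1. At INO1, which encodes inositol phosphate synthase, no base was covered in all 12 libraries and the mean fold enrichment was 3.21.

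Regulatory and cell surface genes were also few in number, with shares on either side of the 5.45% of all protein-coding genes. Sequence-specific transcription factors had 3 of 51 (5.88%), the repressor gene XBP1 and the sulfur-metabolism activator genes MET4 and MET28. Cyclins and cell cycle regulators had 1 of 35 (2.86%), the repressor gene YHP1. Cell wall proteins had 5 of 43 (11.6%), CIS3, CWP1, EXG1, HSP150 and PRY2.

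Some of these regions lay beside tRNA genes, which are read by RNA polymerase III, in a share close to that of all regions. Summits lay within 200 bp of a tRNA gene in 41 of the 432 regions (9.49%), 22 of them inside the gene, against 233 of 2047 (11.4%) over all regions and 24 of 138 (17.4%) among regions in 11 libraries. The 41 regions were narrower, with a median width of 388 bp against 508 bp in the other 391, and had a median summit range over the 12 libraries of 225 bp against 291 bp. The tRNA gene SUF6, on chromosome XIV from 96052 to 96567, had the most constant summit outside ribosomal DNA, with a range of 6 bp. Its widths still ran from 166 bp in HPRT1R YAC replicate 1 to 511 bp in HPRT1R integrated replicate 3. Among snoRNA genes, 6 of 76 (7.89%) had such a region, and SNR52 on chromosome V, 430929 to 431450, stood highest with 5.42 ± 0.816 and a summit range of 104 bp. Spliceosomal RNA genes had 0 of 6. Counting regions in any number of libraries, the shares were 35.5% for snoRNA genes and 33.3% for spliceosomal RNA genes.

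The strongest regions lay at chromosome ends. Of the 432 regions, 22 (5.09%) lay within 1 kb of an end and 37 (8.56%) within 10 kb, against 36 (1.76%) and 91 (4.45%) of all 2047 regions. The last 10 kb at each end make up 2.65% of the nuclear bases. Among the 32 ends, 22 had a region of the set within 1 kb and 29 within 10 kb. Of the 12 regions with the highest mean percentile, 10 lay within 10 kb of an end and another, between YLL066C and PAU18, lay 11072 bp from it. Several of them were beside YRF1 genes, which encode helicases of the repeated Y' elements. The region between YRF1-8 and the right end of chromosome XV, 1090571 to 1091273, had a mean fold enrichment of 13.6 ± 1.92 (SD, n = 12). It ran at 13.1, 12.2 and 12.4 in HPRT1R YAC libraries, 15.7, 17.1 and 14 in HPRT1R integrated libraries, 11.4, 11.1 and 12 in HPRT1 YAC libraries and 13.8, 14 and 16.1 in HPRT1 integrated libraries. The YAC libraries lay below the integrated libraries of both constructs there, with no overlap. Other strong regions did overlap by format. At the left end of chromosome XII, values were 8.32 to 12.5 in YAC libraries and 11.05 to 13.1 in integrated libraries. The formats also overlapped at the left end of chromosome VIII and between YRF1-4 and YRF1-5. How many regions lacked overlap in strength was not counted. Over all 432 regions, the median fold enrichment of a library averaged 3.97 ± 0.341 in HPRT1R YAC libraries, 4.71 ± 0.228 in HPRT1R integrated libraries, 4.02 ± 0.316 in HPRT1 YAC libraries and 4.34 ± 0.433 in HPRT1 integrated libraries (SD, n = 3 each). Peak strength bears on whether a peak is called, so these values are a description only. The region between YRF1-4 and YRF1-5 on chromosome XII, 1071197 to 1072067, had 10.1 ± 1.03 and summits within 21 bp.

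A single region of the top 12 lay away from the ends. It stood upstream of RRT15 on chromosome XII, 489766 to 490526, and had the highest peak of the nuclear list in 11 of 12 libraries. Its mean fold enrichment was 16.7 ± 0.861, with summits within 44 bp. No pileup or local background could be recovered for its peaks in any of the 12 libraries. Whether its reads come from repeated sequence was not tested, so its strength is uncertain too. The ribosomal DNA region at ITS1-2, on the same chromosome, ran from 465159 to 467558. CUP1-1 and CUP1-2, tandem genes for a copper metallothionein on chromosome VIII, stood among the next highest with 6.30 and 6.18. At the other extreme, the 5 regions with the lowest mean percentile all lay in the ribosomal DNA of chromosome XII, where the local background was 172.5 to 212.7 times the library-wide level. Their mean fold enrichments were 1.42 to 1.88. One of them, at TAR1, was the widest region of the set, at 3365 to 3446 bp in every library, and its summit fell on the same base in all 12. Ribosomal DNA, CUP1 and Y' elements are repeated. The treatment of reads with several matching places was not given in the sources used here, and the position and strength of these peaks are uncertain.

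The 43 gene-body regions included protein-coding genes of many kinds and several frames of Ty retrotransposons. Ty elements are repeated as well, so the position and strength of peaks in them are uncertain for the same reason. The highest mean percentile among them belonged to the region in SCS3 on chromosome VII, 270879 to 272237, with a mean fold enrichment of 5.72. Those in RRN5, a subunit gene of an RNA polymerase I factor, and in SHU1, a recombination gene, had 5.82 and 5.48. Gene-body regions were wide, with a median width of 586.5 bp, against 386 bp at promoters of both neighbours and 507.5 bp at the promoter of a single gene.

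Width varied severalfold between regions and also between libraries. The bases in peaks per region and library had a median of 493 bp over regions, with quartiles of 370 and 671 bp. Within a region, the widest library was a median of 2.31 times as wide as the narrowest, and 1.02 to 8.76 times at the extremes. The median width of the 432 regions was 457.5 ± 36.1 bp in HPRT1R YAC libraries, 526.5 ± 5.89 bp in HPRT1R integrated libraries, 490.0 ± 4.44 bp in HPRT1 YAC libraries and 506.5 ± 59.6 bp in HPRT1 integrated libraries (SD, n = 3 each). By format, the medians averaged 473.8 ± 29.1 bp in YAC libraries and 516.5 ± 39.4 bp in integrated libraries (SD, n = 6 each). The formats did not overlap within HPRT1R, at 416 to 481.5 bp in YAC libraries and 520 to 531.5 bp in integrated libraries. They overlapped within HPRT1, at 486.5 to 495 bp in YAC libraries and 445.5 to 564.5 bp in integrated libraries. The other regions had medians of 216 to 248 bp in every library.

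**Figure D3:**
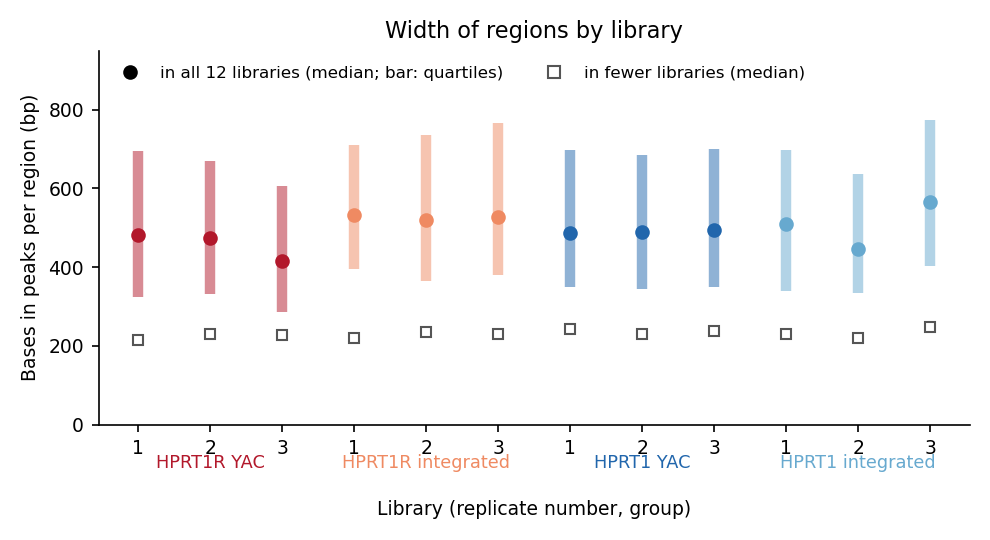
Bases in peaks per region (y axis, bp) in each library (x axis, replicate number within group). Filled circles are medians over the 432 regions in all 12 libraries, bars their quartiles, and open squares the medians of regions in fewer libraries. The circles run from 416 to 564.5 bp and the squares from 216 to 248 bp.

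Most of the regions had a core that was open in every library. In 392 of the 432 (90.7%) at least 1 base was covered in all 12 libraries, and in 343 (79.4%) more than 100 bp, with a median core of 213.5 bp over all 432. The other 40 (9.26%) shared no base, so their libraries were joined only through overlapping neighbours, and 28 of these 40 held several peaks in at least 1 library. In 285 regions (66%) every library held a single peak, and in 39 (9.03%) at least 6 libraries held several.

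Summit positions within a region differed between libraries. The range of summit positions over 12 libraries had a median of 289.5 bp, with quartiles of 188 and 435 bp. It was at most 50 bp in 9 regions (2.08%), at most 200 bp in 119 (27.5%) and above 1000 bp in 18 (4.17%). Regions with a single peak in every library had a median range of 246 bp, and those with several peaks in some library 479 bp. By place, the median range was 229 bp at promoters of both neighbours, 288 bp at the promoter of a single gene, 332 bp in gene bodies and 320 bp elsewhere. Across the 432 regions, summit range went with width (Spearman rho 0.56) and little with mean percentile (rho -0.17), while width and mean percentile had a rho of 0.42. These describe regions of the same 12 libraries, which are not independent.

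The largest summit range, 1719 bp, was at the region between ADH1 and YOL085C on chromosome XV, 159626 to 161957. ADH1 encodes the main fermentative alcohol dehydrogenase. The widths here were 1055 to 2111 bp, and 10 of 12 libraries held several peaks. In the kinase gene PTK1 on chromosome XI, 67648 to 69956, the range was 1673 bp and 11 libraries held several peaks. There the summit stood at -639, 708 and -123 bp from the median in HPRT1R YAC replicates 1, 2 and 3, so replicates of the same group differed by over 1000 bp.

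**Figure D4:**
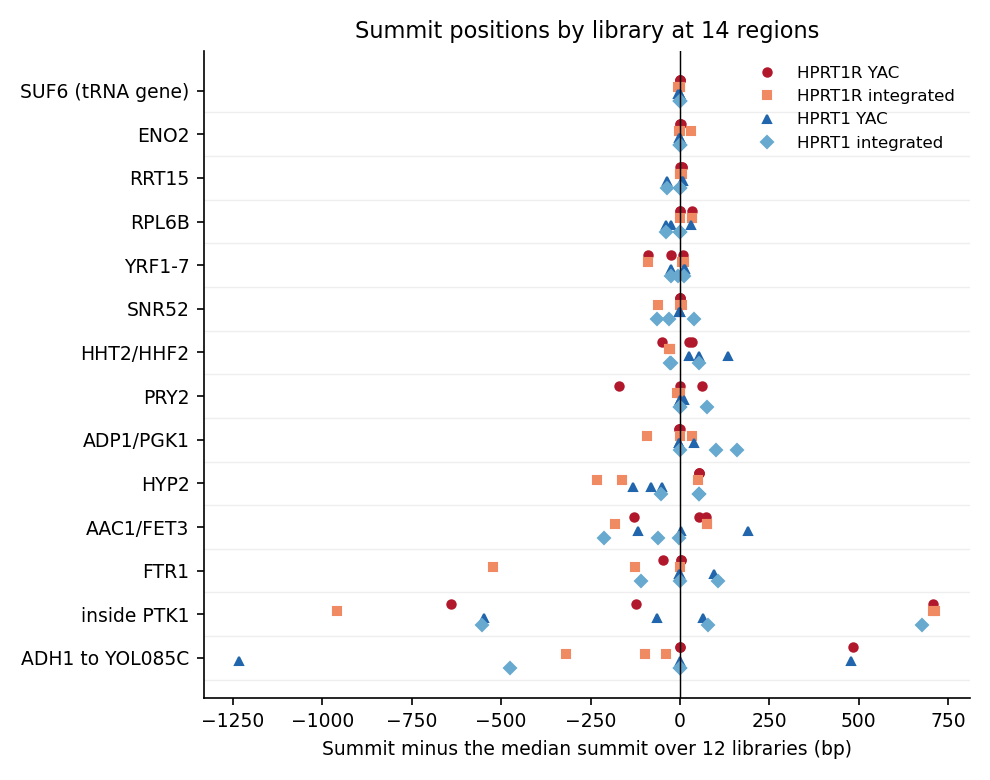
Summit position of each library relative to the region's median summit (x axis, bp) at 14 regions (y axis), coloured and shaped by group. Points at SUF6 and ENO2 lie within 6 and 35 bp, those inside PTK1 and between ADH1 and YOL085C spread over 1673 and 1719 bp, and groups mix within regions.

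Libraries of the same group differed in summit position by about as much as libraries of different groups. The median absolute summit difference between 2 libraries over the 432 regions was 73.3 bp for the 12 pairs of the same group (61 to 82 bp). It was 70 bp for the 18 pairs that differed in construct only (60.5 to 87.5 bp), 72.8 bp for the 18 that differed in format only (66.5 to 86 bp) and 73.3 bp for the 18 that differed in both (64 to 93.5 bp). The median absolute difference in log2 width was 0.29 to 0.31 for the 4 kinds of pairs.

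Summit position was then compared between groups with limma across the 678 regions with a peak in 2 or 3 libraries of every group, all 432 among them, with Benjamini-Hochberg adjustment over the 678. For HPRT1R against HPRT1, 0 of the 432 regions passed an adjusted p of 0.05, and 0% of all regions tested did. At an unadjusted p under 0.05 there were 22 (5.09%), beside 4.57% of all regions tested. The median difference over the 432 was -3.75 bp. For YAC against integrated, again 0 passed, beside 0% of all regions tested, and 22 (5.09%) had an unadjusted p under 0.05, beside 5.31%. The median standard error was 50.6 bp, so at a region with that error a 95% interval by the normal distribution reached 99.2 bp to either side. By the t distribution that limma uses, the interval is wider. Regions with smaller errors resolved smaller shifts. The lowest adjusted p by limma was 0.409, shared by the regions at EXG1, at PRO1 and CFT1, at SNF6 and at ERG3 and SPT8. At the last of these, a sterol desaturase gene and a SAGA subunit gene on chromosome XII, the mean summit position in YAC libraries minus that in integrated libraries was -162 ± 37.1 bp (SE).

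Width by limma separated HPRT1R from HPRT1 at a single region of the 678 (0.147%), and it was one of the 432. It lay upstream of PRY2, a gene for a secreted sterol-binding protein, on chromosome XI from 462872 to 463870, and its summit was 408 bp from the start. Its width was 375, 379 and 330 bp in HPRT1R YAC libraries and 419, 384 and 530 bp in HPRT1R integrated libraries, against 744, 650 and 686 bp in HPRT1 YAC libraries and 820, 796 and 627 bp in HPRT1 integrated libraries. All 6 HPRT1R libraries were below all 6 HPRT1 libraries. The means were 402.8 ± 68.5 bp in HPRT1R and 720.5 ± 78.8 bp in HPRT1 (SD, n = 6 each), with a log2 difference of -0.83 ± 0.14 (SE) and a limma adjusted p of 0.029. Over 17 other settings the log2 difference was -0.92 to -0.59, and the adjusted p was 0.00868 to 0.678 and under 0.05 in 4 of them. The difference was -0.59 by the width of the strongest peak and -0.92 to -0.76 under the other 16. Its size was thus kept under those 16, but the adjusted p was above 0.05 in most settings. The fold enrichment at PRY2 overlapped between the constructs, at 3.59 to 5.19 in HPRT1R and 3.4 to 4.39 in HPRT1. At an unadjusted p under 0.05 there were 26 of the 432 (6.02%), beside 6.19% of all regions tested.

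For YAC against integrated, width by limma passed at 1 of 678 regions (0.147%) and at 0 of the 432. At an unadjusted p under 0.05 there were 39 of the 432 (9.03%), beside 8.41% of all regions tested. The lowest adjusted p among the 432 was 0.0503, for the region between PEX2, a peroxisome biogenesis gene, and OPT1, an oligopeptide transporter gene, whose mean widths were 219.8 bp in YAC libraries and 441.2 bp in integrated libraries. At ADP1 and PGK1 the width was 464, 433 and 654 bp in HPRT1R YAC libraries against 773, 1285 and 928 bp in HPRT1R integrated libraries. It was 518, 763 and 466 bp in HPRT1 YAC libraries against 1033, 1374 and 1273 bp in HPRT1 integrated libraries. The format groups did not overlap there, with means of 549.7 ± 131 bp in YAC and 1111 ± 236 bp in integrated libraries (SD, n = 6 each), but the limma adjusted p was 0.0908. In 8 of the 12 libraries this region held several peaks, whose widths were added together. How many of the other regions had format groups without overlap was not counted. The median standard error of a log2 width difference was 0.19, so a typical 95% interval by the normal distribution reached 0.37 to either side, and more by limma's t distribution.

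The region that passed for format, at ILV5, stood just outside the set with a peak in 11 libraries. ILV5 encodes an enzyme of branched-chain amino acid synthesis. On chromosome XII from 838099 to 840090, the width was 1200, 1222 and 746 bp in HPRT1R YAC libraries against 196, 246 and 257 bp in HPRT1R integrated libraries. It was 1131, 797 and 1355 bp in HPRT1 YAC libraries against 215 and 775 bp in HPRT1 integrated replicates 1 and 3, while replicate 2 had no peak and entered the fit as missing. In 7 of the 11 libraries this region held several peaks, whose widths were added together, and its summit range was 1266 bp. The log2 difference was 1.95 ± 0.30 (SE), with a limma adjusted p of 0.0248. Over 14 other settings the log2 difference was 0.97 to 2.08, and the adjusted p was 0.0187 to 0.149 and under 0.05 in 4. The difference was 0.97 without HPRT1 YAC replicate 3, 1.18 without HPRT1R YAC replicate 3, 1.03 by the width of the strongest peak and 1.17 with only peaks of fold enrichment 3 or more. The strongest other regions with 11 libraries were those at NDI1, a mitochondrial dehydrogenase gene, with a mean fold enrichment of 4.99, at the tRNA gene YNCH0006C with 5.2, at CTK2 with 4.70, at RPL13B and RPS16A with 4.62 and at RPL36B with 4.66.

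**Figure D5:**
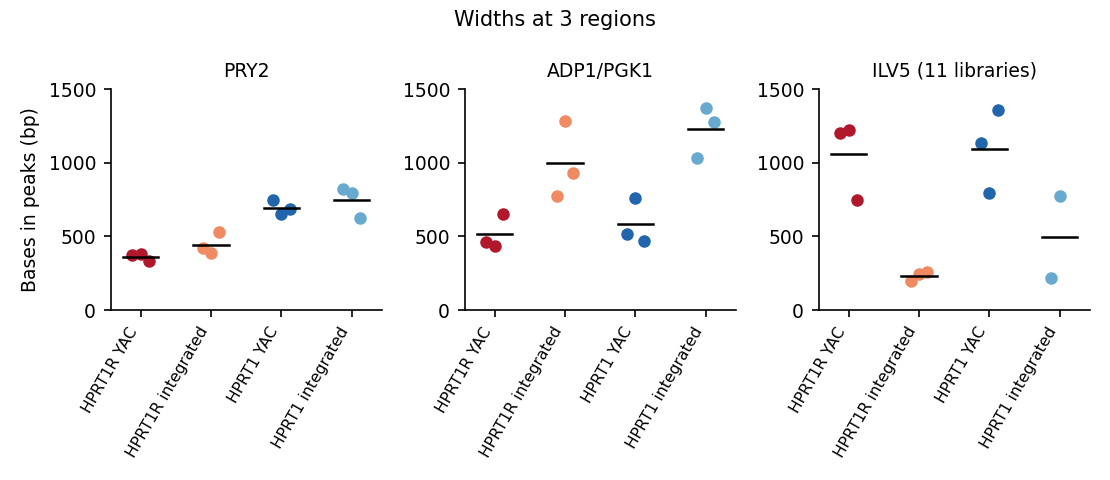
Bases in peaks (y axis, bp) in each library of the 4 groups (x axis) at PRY2, ADP1/PGK1 and ILV5; points are libraries and lines group means. At PRY2 the 6 HPRT1R libraries lie below the 6 HPRT1 libraries, at ADP1/PGK1 the 6 YAC libraries lie below the 6 integrated libraries, and at ILV5 the YAC libraries are wider except for an overlap with HPRT1 integrated replicate 3 at 775 bp.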

How the data were processed

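ATAC-seq libraries of 12 yeast samples in 4 groups of 3 were used as MACS2 peak lists, 1 per library. Per the submitters' processing notes, sacCer3 was the build, and MACS2 2.1.0, deepTools 3.5.0, SAMtools 1.9, Bowtie2 2.2.9 and bcl2fastq 2.20 were among the tools. Peak-calling options, duplicate filters and the treatment of reads with several matches were not given in the sources used here. The deposited values of a peak were its coordinates, a score, a fold enrichment (a ratio to local background) and 2 −log10 values, of the p-value and the q-value. The deposited score was not used. Read depth is unknown.

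The 13052 peaks on nuclear chromosomes were merged with Python 3.11.15. With the Poisson model of MACS2 (pseudocount 1), whole pileups matched the deposited −log10 p within 0.01 at 13039 of them, and the others were left out of pileup values. Gene starts were those of RefSeq's table for R64, the sequence of sacCer3, with strand read from systematic names. Width was the log2 of bases in peaks per region and library, centred on the library's median, and the summit was that of the peak with the highest fold. Both were fitted with limma 3.58.1 in R 4.3.3 over all 678 regions tested, with the other factor as covariate. A library without a peak was missing in the fit. The procedure was tested on simulated data. Alternatives changed peak thresholds, merging, promoter windows, width and summit measures, regions tested, libraries and a replicate block.

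Regions and gene lists were chosen with earlier results of these data known. Named regions were the 12 highest and 3 lowest in mean percentile, the 4 widest, 4 narrowest, 4 with the largest and 4 with the smallest summit range, those past the tests, the 5 highest with 11 libraries, and up to 4 per gene list. Others (CUP1, the gene-body regions, the list members beyond 4 and the regions with the lowest p) were named after their values were seen.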

Additional observations from a re-analysis of the deposited data

How the results depend on the processing

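The 432 regions became 277 with only peaks of fold enrichment 3 or more and 169 with only peaks of −log10 q 5 or more. They were 392 with a shared base, 344 with 100 shared bases, 431 with peaks merged across 100 bp, and 432 to 479 when each library was left out in turn. The promoter share of 57.9% was 25.5% with the window from 300 bp upstream to the start, 85.6% by any overlap and 57.9% among regions with a shared base.

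For width, HPRT1R against HPRT1, the count of 1 became 0 with the width of the strongest peak, without regions holding several peaks, with fold enrichment 3 or more, and with the replicate block, and was 0 to 1 without single libraries. Leaving out regions with several peaks removed PRY2 itself, which held several in 2 libraries, so that 0 does not test PRY2. It was 1 without HPRT1R integrated replicate 3 or HPRT1 integrated replicate 3, without centring, and with only regions in all 12 libraries. For width, YAC against integrated, the count of 1 became 5 without centring and 0 with only regions in all 12 libraries, without regions holding several peaks and with the replicate block. It was 0 to 4 without single libraries, with 4 without HPRT1R YAC replicate 3, 3 without HPRT1 integrated replicate 3, 2 without HPRT1 YAC replicate 2 or HPRT1 integrated replicate 2, and 0 without each of the others. ILV5 was not among the regions fitted with only regions in all 12 libraries or without regions holding several peaks. Without HPRT1 integrated replicate 1 or 3 it had too few libraries to be fitted. The counts under those settings thus do not test ILV5. Summit counts were 0 under every setting run except for YAC against integrated without HPRT1R YAC replicate 2 or HPRT1R integrated replicate 2, where they were 1. The causes were not tested, and leaving out regions reduces the number adjusted over.

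Libraries with the same replicate number had correlations of −0.14 to 0.11 in their deviations from group means, over 18 pairs. Those with other numbers had −0.12 to 0.14, over 36 pairs. With so few reads per peak and 3 libraries per mean, these values cannot decide whether the numbers mark shared cultures or batches. Median summit pileups of 18 to 33 reads limit how finely widths and summits can be placed.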

Other observations

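The density of regions present in all 12 libraries was 25.9 per Mb on chromosome VI and 53.7 per Mb on chromosome V, the lowest and highest of the 16. Chromosome XI, which holds the construct in integrated strains, had 27 of them among its 92 regions, or 40.5 per Mb. Neighbouring regions of the set were a median of 20.6 kb apart over 416 gaps, and 67 gaps were under 5 kb.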
